A study of Homo sapiens with 4 samples.

Results

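The mRNAs of 35 mitosis and cell cycle genes were followed through 4 RNA libraries of Huh7, a widely used cell line from a human hepatocellular carcinoma. The genes were taken by symbol from the count table, by function and not by a threshold on measured values. Kinesin and MCM genes were left out, except the kinesin CENPE. The choice was made with earlier results of these data known. All 35 were among the 56303 features of the table, and all 35 passed the filter of at least 10 counts in at least 2 libraries, as did 19210 features in all. One culture carried a control short hairpin RNA (shControl) and the other a hairpin against RBM39 (shRBM39), an RNA-binding splicing factor. The hairpin was delivered on a plasmid. Each culture gave an input library and a library of the RNA recovered with an RBM39 antibody (the IP), 1 of each, with no IP from a control antibody, so recovery that does not depend on RBM39 was not measured.

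Each group had 1 library, so the differences below have no replicate check. Intervals in brackets are 95% intervals of counting error only. A gene was called higher or lower where the ratio was at least 2-fold, which is 1 on the log2 scale, and its interval excluded equality. Levels are given as CPM, counts scaled to library size with TMM factors, and are compared between libraries for 1 gene and never between genes. Total counts were 20858382 to 45812488 per library. RBM39 mRNA was at 404 CPM in shControl input RNA and 370.3 CPM in the input labelled shRBM39, a ratio of 0.917, and at 1036 and 2221 CPM in the IPs. A knockdown of this size leaves the label almost unchecked, so directions refer to the libraries as labelled. The hepatocyte markers ALB, AFP, APOA1, APOB, TTR, SERPINA1, FGB and HNF4A had 1139 to 98952 counts in every library. Of 14 markers of other cell types 6 passed the count filter, among them CD14, PECAM1 and ACTA2. LYZ (5947 to 12830 counts) and EPCAM (1608 to 1862 counts) were abundant. HBB and MYOD1 had 0 counts throughout and PTPRC at most 2.

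Entry into mitosis is driven by the kinase CDK1 bound to cyclin B, which the CDC25 phosphatases switch on and the kinases PLK1 and AURKA assist. The spindle checkpoint then holds the anaphase-promoting complex and its activator CDC20 in check until the kinetochores of every chromosome are attached to microtubules. Most of these mRNAs are made in late S, G2 and M phase through promoters bound by the DREAM and MuvB complexes, NF-Y, MYBL2 and FOXM1. In liver cancer they are widely used as marks of dividing cells.

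The first comparison asked how the mRNAs differed between the input RNA of the cultures. Together the 35 genes made up 0.394% of all counts in shControl input RNA and 0.573% in shRBM39 input RNA, or 3819 and 5864 summed CPM. The level was higher in the shRBM39 input for 31 of the 35, with a median log2 ratio of 0.50, and 28 of 35 were higher when libraries were scaled to total counts (median 0.42). The counting interval lay above equality for 27 genes and below it for 3. As background, 28.5% of all 19210 compared features had an interval above equality and 26.7% one below. Among the 10844 features with summed counts of at least 844, the sum of the least counted of the 35, these shares were 41.3% and 31.0%, and the median was 0.06. These 10844 are called well-counted features below. A counting interval narrows as counts rise, and this set was not matched to the 35 in depth. The input ratio also rose with the mean count, with a Spearman correlation of 0.60 among the 35. It was 0.22 across the 9473 well-counted features with a RefSeq symbol. Shares of intervals, here and in the later comparisons, are thus not like for like. In bulk RNA a larger share of dividing cells and more RNA per dividing cell cannot be told apart.

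Few of the differences reached 2-fold. RRM1 and INCENP were called higher and 0 of the 35 were called lower, where 5.1% of all compared features were called higher and 5.74% lower (3.78% and 1.09% of well-counted features). At 1.5-fold, 15 of the 35 were higher and 0 lower, against 12.7% and 11.9% of all compared features and 14.4% and 6.81% of well-counted ones. Of the 35, 19 lay above the upper quartile of well-counted features (0.38) and 2 below the lower quartile (-0.24).

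**Figure D1:**
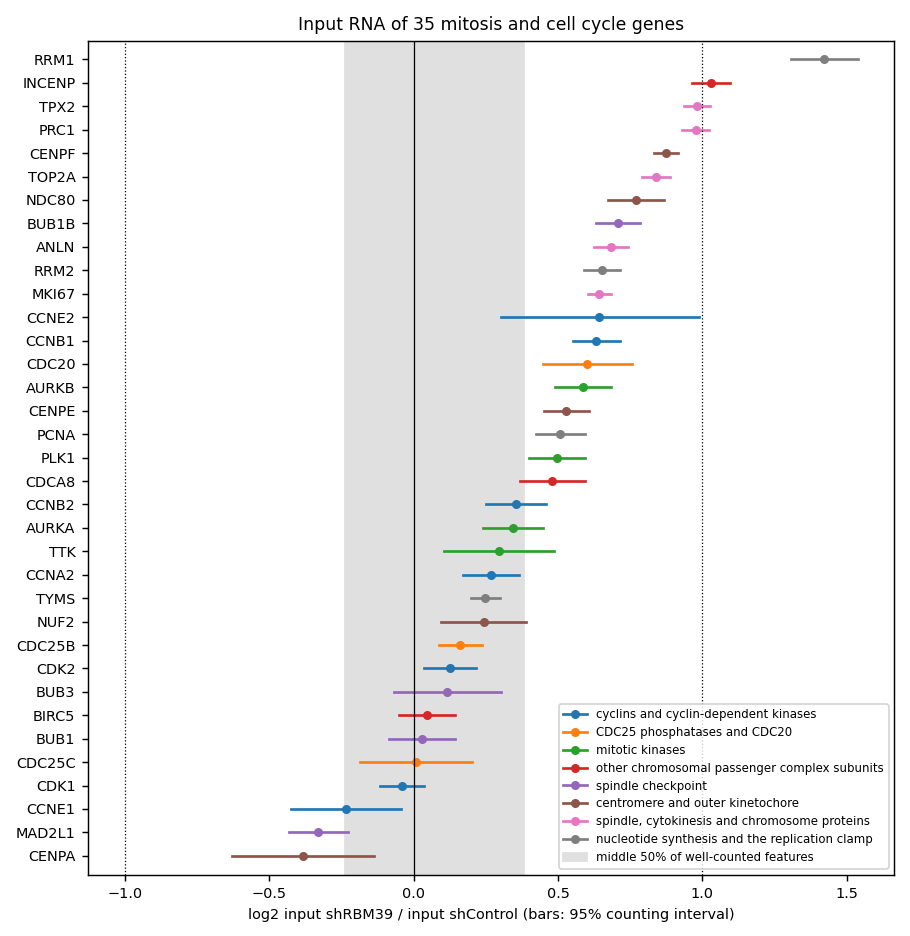
Log2 ratio of input RNA, shRBM39 over shControl, for each of the 35 genes, sorted; points are single-library ratios, bars the 95% counting interval, colours the role, and the grey band the middle 50% of well-counted features. RRM1 (1.42) and INCENP (1.03) lie past the dotted 2-fold line, 31 genes lie right of 0, and CENPA (-0.38) and MAD2L1 (-0.33) lie furthest to the left.

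RRM1, the large subunit of ribonucleotide reductase (chromosome 11, 4094685 to 4138932, GRCh38), showed the largest input ratio of the 35. In shControl cells its level was 39.0 CPM in input and 61.2 CPM in the IP; in shRBM39 cells it was 104.6 CPM and 139.8 CPM. Both shRBM39 libraries thus lay above both shControl libraries. The input ratio was 2.68-fold, log2 1.42 (1.31 to 1.54), which ranked 100 of the 10844 well-counted features. The antisense feature RRM1-AS1, found by its symbol, had 210 and 663 counts in the inputs against 841 and 2275 for RRM1. No overlap of RRM1-AS1 with RRM1 was listed in the annotation used, and the strand setting is not stated. Whether they share reads is thus not known. RRM2, the small subunit that limits the enzyme, was 1.57-fold higher (log2 0.65, 0.59 to 0.72), TYMS, which makes thymidylate, had a log2 ratio of 0.25 (0.20 to 0.30), and the replication clamp PCNA one of 0.51 (0.42 to 0.59).

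INCENP, the scaffold of the chromosomal passenger complex that carries Aurora B to centromeres and the central spindle (chromosome 11, 62124011 to 62153169), had input levels of 128.6 CPM (shControl) and 262.5 CPM (shRBM39), and IP levels of 121.5 and 369 CPM. The input ratio of 2.04-fold, log2 1.03 (0.96 to 1.095), was 0.95 with total counts, which ends the call. The other subunits of the complex did not share this size. The kinase AURKB was 1.5-fold higher (log2 0.585, 0.49 to 0.68), the borealin gene CDCA8 had a log2 ratio of 0.48 (0.37 to 0.59), and BIRC5, which encodes survivin, one of 0.05 (-0.05 to 0.14), so that no difference was detectable for BIRC5 at this depth.

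The 5 genes of the spindle, of cytokinesis and of mitotic chromosomes were all higher, between 0.64 and 0.98 on the log2 scale. TPX2, which activates Aurora A on spindle microtubules, stood at 259 CPM and 511 CPM in the inputs, a log2 ratio of 0.98 (0.94 to 1.03). PRC1, which bundles the microtubules of the central spindle, stood at 256 CPM and 503 CPM (log2 0.98, 0.93 to 1.02). Its antisense feature PRC1-AS1 had a log2 ratio of 1.03 and overlaps it. Topoisomerase TOP2A, which untangles sister chromatids, had a ratio of 0.84 (0.79 to 0.89), ANLN, a scaffold of the contractile ring, one of 0.68 (0.62 to 0.74) and the proliferation antigen MKI67 one of 0.64 (0.60 to 0.68).

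Kinetochore and checkpoint genes were mixed. The large fibrous corona protein CENPF stood at 343 CPM and 629 CPM in the inputs (log2 0.87, 0.83 to 0.91), NDC80, which binds microtubules directly, at 62.6 and 107 CPM (log2 0.77, 0.67 to 0.87), and the motor protein CENPE at a log2 ratio of 0.53 (0.45 to 0.61). NUF2, the partner of NDC80 in the same heterodimer, had a ratio of only 0.24 (0.10 to 0.39), with an interval that did not reach that of NDC80. CENPA, the centromeric histone H3 variant, was lower, at 14.8 and 11.4 CPM (log2 -0.38, -0.63 to -0.14). Of the checkpoint genes, BUB1B, which encodes BubR1, was 1.63-fold higher (log2 0.71, 0.63 to 0.78), MAD2L1, which encodes the CDC20 inhibitor MAD2, was 0.796 times the shControl level (log2 -0.33, -0.43 to -0.23), and for BUB1 (0.03, -0.09 to 0.14) and BUB3 (0.12, -0.07 to 0.30) no difference was detectable at this depth.

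Cyclins and their kinases had a median of 0.27 over 7 genes, and none of the 7 was called. CCNB1, cyclin B1, was 1.55-fold higher (log2 0.63, 0.55 to 0.71), and CCNE2 had a ratio of 0.64 on only 118 and 186 counts (0.30 to 0.99). CCNB2 stood at 0.35 and CCNA2 at 0.27. CDK1, their common partner in mitosis, stood at 130.2 and 126.6 CPM (log2 -0.04, -0.12 to 0.04), CDK2 at 0.12 (0.04 to 0.22) and CCNE1 at -0.23 (-0.42 to -0.04). Of their regulators, CDC20 was 1.52-fold higher (log2 0.60, 0.45 to 0.76), CDC25B had a ratio of 0.16 and CDC25C one of 0.01 (-0.18 to 0.20). PLK1 (0.50), AURKA (0.34) and TTK (0.29), the kinase that starts checkpoint signalling, all had intervals above equality. TTK rests on 407 and 504 counts. In the annotation CCNE2 overlaps INTS8 and NDUFAF6, CCNA2 overlaps EXOSC9 and CDC25C overlaps FAM53C, so reads may be shared.

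Because most of the input ratios lay on one side, the promoters were searched for the elements that many late cell cycle genes share. The table of RefSeq promoters (GRCh38.p14) held 28 of the 35 genes, and the 250 bases before the most upstream start of each were read. The cell cycle genes homology region (CHR), which LIN54 of the MuvB complex binds, was searched as TTTGAA or TTCGAA, and the NF-Y element as CCAAT, on both strands; their matches can share end bases. A CHR match stood in 13 of 28 promoters (46.4%), against 14.6% of 27305 RefSeq promoters of the same length, and a CCAAT match in 19 of 28 (67.9%), against 33.0%. The genes were taken by function, so these shares describe the choice of genes and say nothing about the libraries. The 13 genes with a CHR match had a median input log2 ratio of 0.64 and the 15 without one 0.27. With and without a CCAAT match the medians were 0.585 and 0.248. The 11 genes with both matches had a median of 0.602 and the other 17 one of 0.508, which is a smaller gap. These medians are a description of the members with no test. The windows of the 4 matched genes with the highest input ratio (RRM1, INCENP, PRC1 and CENPF) and of the pair with the lowest (CENPA and MAD2L1) are shown 5′ to 3′ on the gene's strand, with CHR and CCAAT matches on either strand in capitals.
RRM1, chr11:4094435-4094684, plus strand: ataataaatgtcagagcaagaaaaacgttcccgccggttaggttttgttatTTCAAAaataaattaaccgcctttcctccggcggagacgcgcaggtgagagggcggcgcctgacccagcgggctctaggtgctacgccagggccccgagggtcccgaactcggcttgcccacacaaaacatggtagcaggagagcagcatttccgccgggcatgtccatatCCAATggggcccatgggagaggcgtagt
INCENP, chr11:62123761-62124010, plus strand: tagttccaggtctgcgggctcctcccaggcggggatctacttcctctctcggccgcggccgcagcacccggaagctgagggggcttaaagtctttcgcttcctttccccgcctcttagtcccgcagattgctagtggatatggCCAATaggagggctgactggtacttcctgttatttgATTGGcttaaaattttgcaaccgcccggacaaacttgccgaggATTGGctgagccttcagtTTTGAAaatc
PRC1, chr15:90994536-90994785, minus strand: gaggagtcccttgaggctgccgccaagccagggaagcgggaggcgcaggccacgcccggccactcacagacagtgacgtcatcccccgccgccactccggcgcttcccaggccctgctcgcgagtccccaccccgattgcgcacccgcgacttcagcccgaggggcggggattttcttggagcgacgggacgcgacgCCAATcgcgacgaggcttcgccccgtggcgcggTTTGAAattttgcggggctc
CENPF, chr1:214602945-214603194, plus strand: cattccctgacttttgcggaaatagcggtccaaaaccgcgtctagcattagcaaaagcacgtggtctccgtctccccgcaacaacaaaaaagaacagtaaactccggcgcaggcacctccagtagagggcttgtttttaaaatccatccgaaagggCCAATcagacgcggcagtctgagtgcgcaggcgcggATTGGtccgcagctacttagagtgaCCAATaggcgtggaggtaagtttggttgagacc
CENPA, chr2:26785806-26786055, plus strand: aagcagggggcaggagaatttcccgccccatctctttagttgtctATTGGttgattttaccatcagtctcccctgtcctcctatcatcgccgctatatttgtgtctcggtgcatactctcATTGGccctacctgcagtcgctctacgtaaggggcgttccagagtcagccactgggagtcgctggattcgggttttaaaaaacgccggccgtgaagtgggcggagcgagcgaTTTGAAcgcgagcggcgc
MAD2L1, chr4:120066849-120067098, minus strand: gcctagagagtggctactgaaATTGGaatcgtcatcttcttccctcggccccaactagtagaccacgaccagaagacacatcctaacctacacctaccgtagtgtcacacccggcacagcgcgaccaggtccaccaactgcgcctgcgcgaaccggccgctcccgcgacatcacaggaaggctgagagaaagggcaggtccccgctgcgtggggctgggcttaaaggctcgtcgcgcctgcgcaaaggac

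INCENP and PRC1 carry a CHR match whose first base lies 10 and 20 bases before the start, with CCAAT matches upstream of it. CENPA carries the same pairing, with its CHR match 18 bases before the start, although its input ratio was the lowest of the 35. CENPF has 3 CCAAT matches and no CHR match in this window, the CHR match of RRM1 lies 199 bases upstream, and MAD2L1 has a single CCAAT match 229 bases upstream. High and low input ratios thus occurred with and without a CHR match in these windows. A match of letters is not a bound site.

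The second comparison set the RBM39 IP against its input. In shControl cells the 35 genes had a median log2 ratio of 0.195, where all compared features had one of -0.005 and well-counted features one of 0.11. Of the 35, 3 were called higher in the IP (CDC25B, PLK1 and AURKB) and 2 lower (CENPE and TTK), where 7.7% of compared features were called higher and 11.3% lower (7.84% and 5.63% of well-counted features). At 1.5-fold, 8 were higher and 5 lower, against 18.9% and 20.6% of all compared features and 23.3% and 15.8% of well-counted ones. The interval lay above equality for 20 and below it for 8, against 34.1% and 33.1% of all compared features and 47.9% and 35.6% of well-counted ones. With total counts as the scale CDC20 (1.07) and PCNA (1.08) were also called higher, and TTK (-0.93) and CENPE (-0.97) were no longer called.

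In shRBM39 cells the median of the 35 was 0.193, against 0.02 for all compared features and 0.09 for well-counted ones. CDC25B alone of the 35 was called higher and 0 were called lower, where 5.29% of compared features were called higher and 9.0% lower (4.09% and 4.9% of well-counted features). At 1.5-fold, 4 were higher and 1 lower, against 15.5% and 17.4% of all compared features and 17.8% and 14.2% of well-counted ones. The interval lay above equality for 24 and below it for 5, against 32.9% and 30.0% of all compared features and 46.6% and 34.4% of well-counted ones. The intervals below equality were 9 with total counts, 1 with no filter on low counts and 3 with halved counts. The 2-fold counts in both cultures lie near or below the background shares.

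CDC25B, the phosphatase that starts CDK1 activation at the centrosome (chromosome 20, 3786951 to 3806115), was recovered most in both IPs. Its level was 129.7 CPM in input and 382 CPM in the IP of shControl cells, and 145 and 398 CPM in those of shRBM39 cells. Both IPs lay well above both inputs. Its log2 ratio in shControl cells was 1.56 (1.502 to 1.62), 2.95-fold. In shRBM39 cells it was 1.45 (1.40 to 1.51), 2.74-fold. The related phosphatase CDC25C did not share this recovery, at -0.14 (-0.31 to 0.03) and 0.58 (0.42 to 0.74). CDC20, which activates the anaphase-promoting complex, was at 26.9 CPM (input) and 53.2 CPM (IP) with the control hairpin and at 40.8 and 73.8 CPM with the RBM39 hairpin, log2 ratios of 0.99 (0.85 to 1.12) and 0.86 (0.75 to 0.97).

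Among the mitotic kinases, PLK1 stood at 68.5 CPM in input and 143 CPM in the IP of shControl cells (log2 1.06, 0.98 to 1.15) and at 96.5 and 180.0 CPM in shRBM39 cells (log2 0.90, 0.83 to 0.97). AURKB had ratios of 1.004 (0.92 to 1.09) and 0.68 (0.61 to 0.75), and its paralog AURKA only 0.16 (0.06 to 0.25) and 0.17 (0.08 to 0.25). TTK went the other way, from 18.9 CPM in input to 9.38 CPM in the IP of shControl cells (log2 -1.01, -1.21 to -0.81), and from 23.2 to 20.4 CPM in shRBM39 cells (log2 -0.19, -0.35 to -0.02). Genes of nucleotide synthesis and the clamp were above input in both cultures: PCNA at 0.998 and 0.57, TYMS at 0.71 and 0.42, RRM2 at 0.70 and 0.18 and RRM1 at 0.65 and 0.42. TYMS overlaps ENOSF1 and TYMSOS in the annotation, whose reads may be shared with it.

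Below input in shControl cells, beside TTK, were CENPE, CENPF, ANLN (-0.82, -0.88 to -0.76) and MKI67, and by less CDK1, CENPA (-0.25) and INCENP (-0.08). CENPE, which carries chromosomes to the spindle equator (chromosome 4, 103105811 to 103198343), was at 103.6 CPM in input and 50.04 CPM in the IP of shControl cells (log2 -1.05, -1.13 to -0.97). With the RBM39 hairpin it was at 149.5 and 97.8 CPM (log2 -0.61, -0.68 to -0.55), so the IP was below the input in both. CENPF had ratios of -0.94 (-0.98 to -0.89) and -0.12 (-0.15 to -0.09), and MKI67 of -0.68 (-0.72 to -0.64) and -0.13 (-0.16 to -0.10). The outer kinetochore gene NDC80 lay above input in both cultures (0.24 and 0.25), while its partner NUF2 lay above it in shControl cells (0.33) and below it with the RBM39 hairpin (-0.14, -0.27 to -0.02). The checkpoint genes had ratios of 0.58 and 0.51 for BUB3, -0.02 and 0.01 for BUB1, 0.07 and 0.51 for BUB1B, and 0.29 and 0.01 for MAD2L1, and none of these intervals lay below equality. Among the cyclins and their kinases, ratios in shControl cells ran from -0.38 for CDK1 to 0.52 for CCNB1, and in shRBM39 cells from -0.10 for CCNE2 to 0.34 for CCNB2.

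**Figure D2:**
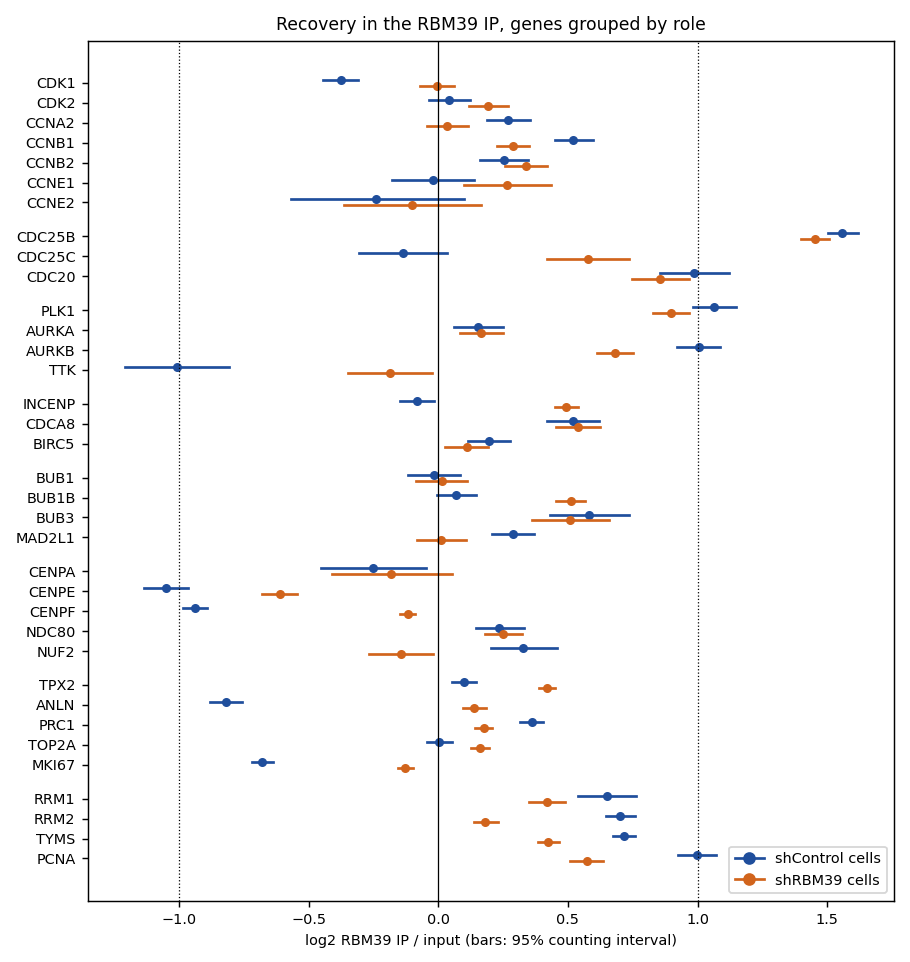
Log2 ratio of RBM39 IP over input for the 35 genes in shControl cells (blue) and shRBM39 cells (orange), grouped by role; points are single-library ratios and bars 95% counting intervals. CDC25B stands past the dotted 2-fold line in both cultures, while ANLN, CENPF, TTK and MKI67 lie left of 0 in shControl cells and nearer to 0 in shRBM39 cells.

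Over both cultures IP and input could be tested with 2 libraries on each side. In edgeR's quasi-likelihood test with culture as a block, 9 of the 35 genes were higher in the IP and 2 lower at a Benjamini-Hochberg adjusted p under 0.05. Of all compared features 19.2% were higher and 17.6% lower (29.0% and 20.2% of well-counted features), so the higher calls among the 35 lie between these shares and the lower calls below both. With culture in the model only 1 residual degree of freedom is left, and it also absorbs whatever differs in recovery between the cultures. Without culture as a block 0 of the 35 and 0 of 19210 features passed. In that edgeR fit 6 of the 35 were higher and 0 lower at an unadjusted p under 0.05, against 1960 and 2183 of the 19210. DESeq2 with culture called 9 of the 35 higher and 1 lower, against 2598 and 2097 of the 19210.

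The genes past the edgeR threshold were CDC25B (log2 1.51, adjusted p 3.33e-06, 8.27e-06 or below under the alternatives that kept culture), PLK1 (0.98, adjusted p 8.59e-05), CDC20 (0.92, 8.03e-05), AURKB (0.84, 0.000401), PCNA (0.79, 0.00101), TYMS (0.57, 0.0182), BUB3 (0.55, 0.00717), RRM1 (0.53, 0.00977) and CDCA8 (0.53, 0.00861). The lower genes were CENPE (-0.83, edgeR adjusted p 0.000471) and TTK (-0.59, 0.0167). Each of these 9 was above its input, and each of these 2 below it, in both cultures. TTK did not pass with DESeq2 (adjusted p 0.0803), and RRM1 (0.0523) and TYMS (0.057) did not pass in edgeR with total counts as library sizes.

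The third comparison asked whether recovery differed between the cultures, as the log2 ratio of IP over input in shRBM39 cells minus that in shControl cells. None of the 35 differed by 2-fold (0 higher and 0 lower, where 4.39% and 2.74% of compared features were called, and 1.21% and 0.553% of well-counted ones), and the median of the 35 was 0.02. The interval lay above equality for 13 and below it for 12, against 19.7% and 21.5% of all compared features and 25.1% and 31.0% of well-counted ones. With total counts it lay above for 10 and below for 19, and the genes above 0 went from 20 to 11. With total counts the median of the 35 was -0.17, while the median of all compared features moved from -0.004 to -0.198, so the members moved with the scaling. At 1.5-fold, 4 genes were higher (ANLN, TTK, CENPF and CDC25C) and 0 lower, against 7.95% and 6.83% of all compared features and 4.84% and 5.64% of well-counted ones. CDC25C overlaps FAM53C in the annotation, whose own difference was 0.29, and their reads may be shared.

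ANLN had the largest difference. Its level was 172 CPM in input and 97.4 CPM in the IP of shControl cells, and 276 and 304 CPM in those of shRBM39 cells, so the IP was below the input in the first culture and above it in the second. The difference was 0.96 (0.88 to 1.03). It was 0.82 (0.57 to 1.07) for TTK, 0.82 (0.77 to 0.87) for CENPF, 0.71 (0.49 to 0.94) for CDC25C, 0.57 (0.50 to 0.65) for INCENP, 0.55 (0.50 to 0.60) for MKI67, 0.44 (0.35 to 0.53) for BUB1B and 0.44 (0.33 to 0.54) for CENPE. The 4 genes of nucleotide synthesis and the clamp all lay on the other side, with RRM2 at -0.52 (-0.59 to -0.45), PCNA at -0.43 (-0.52 to -0.33), TYMS at -0.29 and RRM1 at -0.23. NUF2 stood at -0.47 (-0.65 to -0.30) and AURKB at -0.32 (-0.43 to -0.21).

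A difference of recovery adds to the input ratio in the IP libraries themselves. IP over IP, shRBM39 over shControl, 8 of the 35 were called higher (CENPF, ANLN, INCENP, TPX2, MKI67, RRM1, BUB1B and TTK) and 0 lower, where 6.61% of compared features were called higher and 5.27% lower (5.15% and 1.85% of well-counted features); with total counts 4 were called higher. With a 1.5-fold limit 14 were higher and 1 lower, against 14.1% and 12.3% of all compared features and 14.2% and 8.59% of well-counted ones. The interval lay above equality for 26 and below it for 4 (31.5% and 31.3% of all compared features, 42.0% and 38.2% of well-counted ones), and for 21 and 12 with total counts. The median was 0.40, and 0.13 with total counts, a scaling that moved the median of all compared features to -0.28. CENPF had IP levels of 179 CPM (shControl) and 579 CPM (shRBM39), 3.23-fold (log2 1.69, 1.66 to 1.73), of which 0.87 was also seen between the inputs. ANLN was 3.12-fold higher (1.64, 1.59 to 1.69) and INCENP 3.04-fold (1.60, 1.56 to 1.65). RRM1, at 1.19, was less far apart between the IPs than between the inputs. MAD2L1 was lowest, at 99.6 and 65.4 CPM (-0.61, -0.68 to -0.54). The 8 hepatocyte markers moved between the same IPs with a median of -0.73, against 0.08 between the inputs, and their part in the result was not tested.

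**Figure D3:**
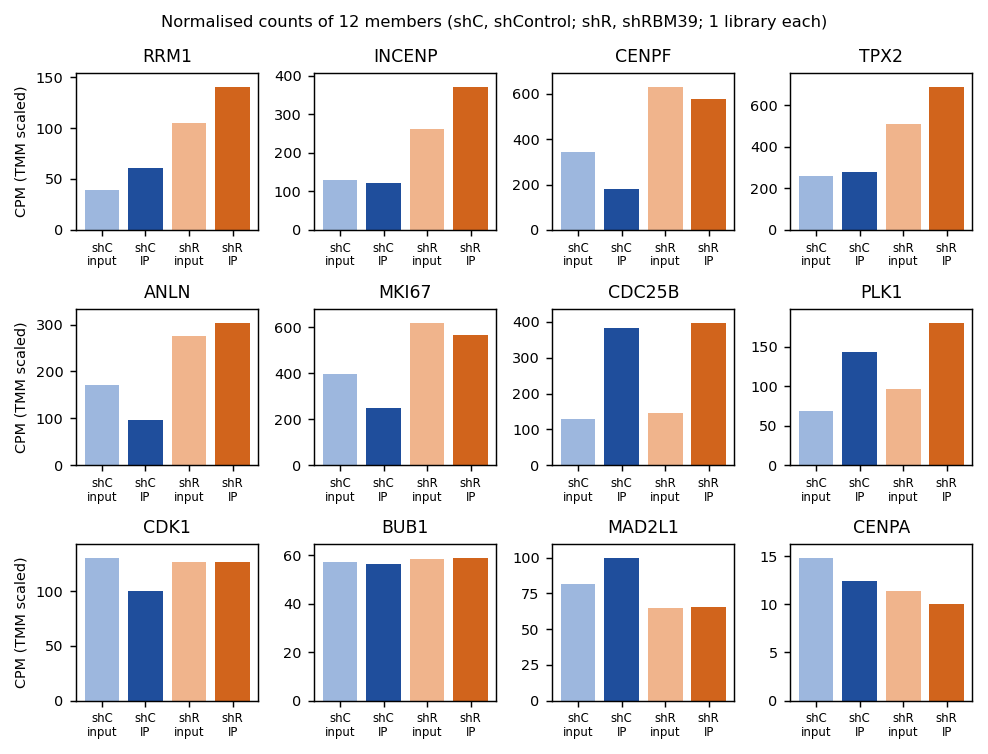
TMM-scaled CPM of 12 genes in the 4 libraries (bars, 1 library each, from 0; every panel has its own scale). RRM1, INCENP and TPX2 are higher in both shRBM39 libraries, CDC25B and PLK1 are higher in both IPs, ANLN, CENPF and MKI67 are lowest in the shControl IP, and BUB1 is level at 56.4 to 58.8 CPM.

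Gene span was set against each ratio of the 35. Across the 35, the Spearman correlation of the log2 IP over input ratio with the gene's span in RefSeq was -0.43 with the control hairpin and -0.23 with the RBM39 hairpin. That of the difference with the span was 0.46. Across the 9473 well-counted features with a RefSeq symbol these were -0.23, -0.22 and 0.08. The relation was not limited to recovery: among the 35 the input ratio had a correlation with span of 0.46 and the IP over IP ratio one of 0.62 (0.14 and 0.16 in well-counted features), and the input ratio had one of 0.60 with the mean count. All points share the same libraries and the span includes introns, so these values describe the genes and carry no test. CENPE (92.5 kb), ANLN (63.9 kb) and CENPF (61.4 kb) were below input in shControl cells. RRM2 (88.4 kb), TPX2 (62.5 kb) and BUB1B (60.1 kb) have annotated spans of similar size and were not. The annotated span of RRM2 also overlaps MIR4261 and the long non-coding RNA LOC105373424, so it may overstate the length of the RRM2 transcript unit. The part of transcript length in the result was not tested.

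**Figure D4:**
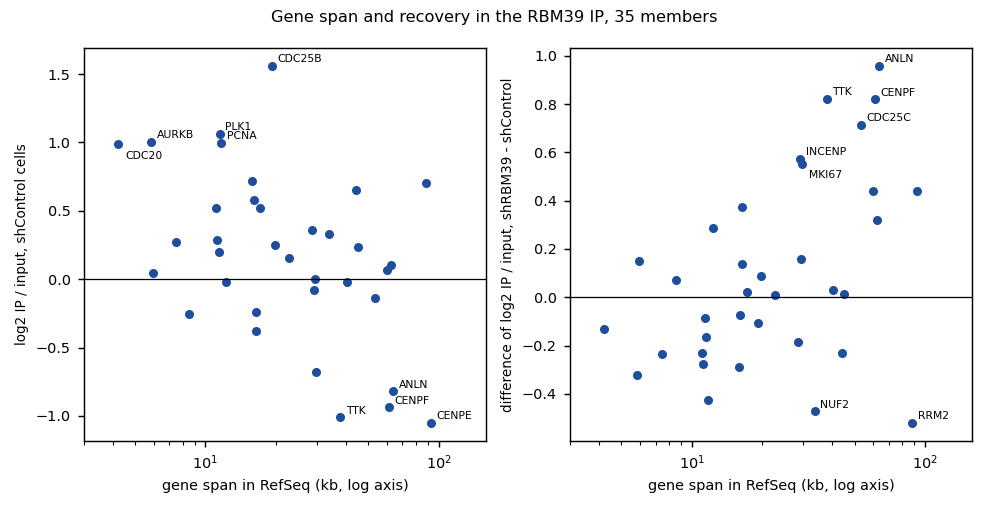
Gene span in RefSeq (kb, log axis) against the log2 ratio of IP over input in shControl cells (left) and against the difference of that ratio between cultures (right), 1 point for each of the 35 genes. CENPE, CENPF, TTK and ANLN lie low on the left, ANLN, CENPF and TTK high on the right, and RRM2 (88.4 kb) lies apart from them in both panels.

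Of 169 other cell cycle genes in 7 lists, 168 were compared (CCND2 was too low). In the inputs 7 were called higher and 0 lower, with a median of 0.22. Of all compared features 5.1% were called higher and 5.74% lower (3.78% and 1.09% of well-counted features). The higher calls among the 168 thus lie between the background shares of higher calls. They were UHRF1, which guides maintenance DNA methylation (1.55), the replicative ligase LIG1 (1.29), GSG2, which encodes the mitotic kinase haspin (1.097), the thymidine kinase TK1 (1.07), POLA2 (1.05), the separase ESPL1 (1.02), which cuts cohesin, and the CDK inhibitor CDKN1A (1.01), the last on 38 and 78 counts. Cohesin, condensin and shugoshin genes had a median of 0.38 and 19 of 23 intervals above equality, against 28.5% of all compared features and 41.3% of well-counted ones. Genes of nucleotide synthesis and S phase polymerases had a median of 0.31 with 4 of 23 called higher, and other spindle and cytokinesis genes one of 0.31 with 1 of 28. The G1 cyclins, other CDKs and CDK inhibitors (0.03), the RB, E2F and DREAM genes (-0.04), the anaphase-promoting complex (-0.06) and other kinetochore genes (0.11) lay near the median of all features. Of the 20 RB, E2F and DREAM genes, 9 had an input ratio above 0 and 11 one below it. The lower ones included FOXM1 (-0.35) and MYBL2 (-0.16), activators of late cell cycle genes, and the highest was E2F2 (0.63). Between the IPs, FOXM1 (0.25) and MYBL2 (0.60) had higher values in shRBM39 cells.

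In the shControl IP 5 of the 168 were called higher and 4 lower, where 7.7% and 11.3% of all compared features were (7.84% and 5.63% of well-counted ones), so both counts lie below the background. The higher genes were E2F2 (1.45), TK1 (1.34), the kinetochore gene PMF1 (1.26), ANAPC2 (1.21), the catalytic core of the anaphase-promoting complex, and the DNA polymerase POLD1 (1.05). The lower genes were CENPC (-1.35), the spindle pole gene ASPM (-1.27), LIN54 (-1.19), the DNA-binding subunit of DREAM, and MIS12 (-1.15). In the shRBM39 IP POLD1 (1.08) was called higher and LIN54 (-1.11) lower, 1 gene each, where 5.29% and 9.0% of all compared features were (4.09% and 4.9% of well-counted ones). ASPM was the only one of the 168 whose recovery differed by 2-fold between the cultures, from -1.27 to -0.04 (difference 1.23, 1.13 to 1.33). Of all compared features 4.39% were called higher in this way, and 1.21% of well-counted ones. Between the IPs 13 of the 168 were called higher and 0 lower, where 6.61% and 5.27% of all compared features were (5.15% and 1.85% of well-counted ones), so the higher calls lie near the share of all features. Among them were UHRF1 (1.57), ASPM (1.49), the cohesin subunits SMC1A (1.46) and SMC3 (1.39), HMMR (1.28), E2F8 (1.14), CENPC (1.11) and POLE (1.02). In the inputs SMC1A had a ratio of 0.90 and SMC3 one of 0.94.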

How the data were processed

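Input RNA and RBM39 IP RNA of 2 Huh7 cultures were each sequenced as 1 library. The deposited values are raw counts per gene symbol, not normalized by the authors. HISAT2 2.0.4, cutadapt 1.9, the build hg38 and StringTie 1.3.4d are named in the submitters' processing notes. The sources used here give no counting program or strand setting. Of counts from 3 to 6, 71.4% to 75.6% were even, so mates may have been counted singly. In that case the intervals, taken from undivided counts, are too narrow even for counting error. They cover counting error only.

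Libraries were scaled by TMM (edgeR 4.0.16, R 4.3.3), with 0.5 added to each count before log2 ratios. Intervals were exact conditional (Clopper-Pearson) for a ratio of libraries and normal, from the counting standard error, for the difference of ratios. For IP against input, both cultures entered one edgeR quasi-likelihood fit with culture as a block, with DESeq2 1.42.0 as an alternative. Both steps were tested on simulated counts. For IP against input over 19210 features, edgeR found 61 of the 100 simulated 2-fold changes and 94 of the 100 simulated 4-fold ones, with 7 false calls. That simulation gave all features the same fixed dispersion and no difference between the cultures. Its false calls thus do not give the error rate in the real libraries. Alternatives were total counts, DESeq2 size factors, no filter, 2 added to each count, halved counts and a 1.5-fold limit. The named genes are the 35, RBM39, up to 2 called features per direction, list and comparison, and overlapping or antisense features; POLA2, CCND2, FOXM1 and MYBL2, and values of a named gene in other comparisons, were added after values were seen. The members and lists were chosen with earlier results of these data known.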

Additional observations from a re-analysis of the deposited data

Results flagged for a closer look

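For 3 of the chosen mitosis and cell cycle genes the counting intervals of IP over input lay on opposite sides of equality in the cultures. This pattern was looked for among the chosen genes only. Its share among all compared or well-counted features was not counted, so whether 3 is many or few is not known. ANLN stood at -0.82 (-0.88 to -0.76) in shControl cells and 0.14 (0.10 to 0.18) in shRBM39 cells, a difference of 0.958. INCENP stood at -0.08 (-0.15 to -0.01) and 0.49 (0.45 to 0.54), a difference of 0.574. NUF2 stood at 0.33 (0.20 to 0.46) and -0.14 (-0.27 to -0.02), a difference of -0.473. These patterns depend on the settings. With total counts the shControl interval of INCENP (-0.07 to 0.06) and the shRBM39 interval of ANLN (-0.02 to 0.07) held equality. With no filter on low counts those of INCENP in shControl cells (-0.06 to 0.08) and of NUF2 in shRBM39 cells (-0.15 to 0.10) did, and with halved counts the same intervals did again (-0.17 to 0.01 and -0.32 to 0.03). With 1 library per group these differences were not tested against replicate spread.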

How the results depend on the processing

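The ratios of members were recomputed under 6 alternatives, and no called ratio of a member changed sign. With total counts per library, members called higher were 1 between inputs, 5 for the shControl IP (0 lower) and 4 between IPs, the medians were 0.079 for the shRBM39 IP over input and 0.13 between IPs, and the median difference of recovery turned to -0.17. With no filter on low counts there were 5 higher and 0 lower for the shControl IP (median 0.285), and the shRBM39 IP had 2 higher (median 0.311). At a 1.5-fold limit there were 15 higher between inputs, 8 higher and 5 lower for the shControl recovery, and 4 and 1 for the shRBM39 recovery. That limit also gave 4 higher for the difference of recovery, and 14 higher and 1 lower between IPs, with background shares given above. Adding 2 to each count, DESeq2 size factors and halved counts left each of these counts within 1.5 times its value. In the test over both cultures, DESeq2 called 1 member lower, and without culture as a block 0 were higher and 0 lower. Leaving out a library leaves no residual degree of freedom in that test. The test with culture as a block sets each IP against the input of its own culture; the labels give no replicate numbers for any other pairing. Depth limits CCNE2, CENPA, TTK and CDC25C, with 118 to 440 counts in the shControl input.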
